A study of Mus musculus with 22 samples.

Results

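The genes described here belong to the unfolded protein response and to the ATF4 programme, and they were followed in mouse TH2 cells with and without calcitriol. The 31 genes were listed by symbol and read from a table of 49671 genes, and all 31 were found there. They fall into an ER arm of 16 genes (sensors, chaperones, folding enzymes and 1 degradation factor of the endoplasmic reticulum) and an ATF4 arm of 15 genes (ATF4, stress regulators below it, amino acid and one-carbon enzymes, and amino acid transporters). The cells came from WT Balb/c mice and had been polarized in culture toward TH2, the helper T cell state that makes IL-4, IL-5 and IL-13. In 11 libraries calcitriol, the active hormone form of vitamin D, had been present at 100 nM for the last 24 hours of culture. In 11 vehicle libraries the solvent control, 2% ethanol, had been used, and the labels do not say whether calcitriol cultures held ethanol too. RNA was taken on day 5 of polarization in both groups. Mice of both sexes, 6 to 8 weeks old when obtained, were bred on diets with 400, 1000 or 4000 IU of vitamin D3 per kg. The mouse, sex, diet and culture behind a library are not in the labels. A p-value here sets the difference between groups against the spread of libraries within a group only. Some of that spread may be technical, and how many mice or cultures it covers is not known.

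The unfolded protein response is the answer of a cell to unfolded protein in the endoplasmic reticulum (ER). Its sensors are IRE1 (gene Ern1), which splices Xbp1 mRNA to give the factor XBP1, ATF6, which is cut free from its membrane, and PERK (gene Eif2ak3), which phosphorylates eIF2α. XBP1 and ATF6 raise ER chaperones and folding enzymes. Phosphorylated eIF2α slows most translation but favours that of Atf4 mRNA. Other kinases phosphorylate eIF2α as well, for instance GCN2 when amino acids run short, so ATF4 targets can move without the ER sensors, a route called the integrated stress response. ATF4 raises genes of amino acid synthesis, uptake and tRNA charging, which proliferating T cells draw on. Splicing of Xbp1, cleavage of ATF6 and translation of Atf4 are not visible in counts per gene.

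Calcitriol libraries held 3214171 to 12431051 counts each and vehicle libraries 3618784 to 20258430. Levels below are TMM-normalised CPM, counts on a common library size after scaling of the libraries to each other. Cyp24a1, the vitamin D degrading enzyme that calcitriol induces, had 16.6 to 75.7 CPM in the 11 calcitriol libraries and no count in any of the 11 vehicle libraries, so the labels held for every library. Of 11905 genes tested with edgeR's quasi-likelihood test, 16.1% were called higher and 15.5% lower with calcitriol at a Benjamini-Hochberg adjusted p under 0.05. When libraries were scaled by total count only, 31.4% of the called genes were higher, against 50.9% with TMM factors, and the median log2 change of all genes was -0.08 in place of -0.01. Replicates 1 to 4 of both groups stood apart in several ATF4 arm genes and in some ER arm genes, and results without them are given as well. A split by total count at the median nearly follows the same line. The deeper libraries are all from replicates 5 to 11. The shallower ones are replicates 1 to 4 of both groups with calcitriol 6, vehicle 5 and vehicle 6. The depth splits and the fit without replicates 1 to 4 are therefore not separate checks.

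The promoters of 29 of the 31 genes were in the RefSeq table used here (GRCm38.p6, 250 bases before to 50 bases after the start). Of these, 100-base windows are shown for the genes that stand for the motif matches in each arm, 5′ to 3′ on the strand of the gene, with the matched letters in capitals. The C/EBP-ATF response element was searched as TGATGNAA on both strands. It was found in 6 of 14 ATF4 arm genes (Asns, Atf3, Chac1, Trib3, Slc7a11 and Vldlr) and in 1 of 15 ER arm genes (Herpud1), against 2.69% of the genes tested that have a promoter in the table and 3.97% of all 32851 promoters. The windows of 4 ATF4 arm genes that were lower with calcitriol lie at chr6:7693180-7693279 (Asns, minus strand), chr1:191183390-191183489 (Atf3, minus strand), chr2:119351003-119351102 (Chac1, plus strand) and chr2:152344031-152344130 (Trib3, minus strand).
Asns: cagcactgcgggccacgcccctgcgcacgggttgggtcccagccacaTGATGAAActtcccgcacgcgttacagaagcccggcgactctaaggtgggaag
Atf3: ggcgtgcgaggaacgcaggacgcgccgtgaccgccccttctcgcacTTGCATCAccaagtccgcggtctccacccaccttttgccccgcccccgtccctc
Chac1: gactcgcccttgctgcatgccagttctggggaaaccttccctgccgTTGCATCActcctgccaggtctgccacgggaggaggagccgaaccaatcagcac
Trib3: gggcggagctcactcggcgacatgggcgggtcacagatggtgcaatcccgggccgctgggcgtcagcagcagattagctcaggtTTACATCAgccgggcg
In Asns the match began 23 bases before the start on the strand of the gene. In the other 3 it lay on the opposite strand, beginning 110 bases before the start in Atf3, 193 before it in Chac1 and at base 15 of the transcript in Trib3. Matches and calls did not go together gene by gene. Slc7a11 and Vldlr have the letters and were not called. Ddit3, Mthfd2, Phgdh, Psat1, Sesn2 and Shmt2 were called lower with no match in their promoters.

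The ER stress response element, CCAAT and CCACG with 9 bases between them, was found in 6 of 15 ER arm genes (Calr, Canx, Dnajc3, Hsp90b1, Hspa5 and Pdia6) and in 0 of 14 ATF4 arm genes, against 0.169% of such genes and 0.119% of all promoters. Its shorter form ERSE-II, ATTGG and CCACG with 1 base between them, was found in Dnajb11 and Herpud1, against 0.0902% of such genes and 0.0365% of all promoters. Windows are shown for Hspa5 (chr2:34771984-34772083, plus strand) and Canx (chr11:50325760-50325859, minus strand), which carry the full element, and for Herpud1 (chr8:94386302-94386401, plus strand), the gene that carries letters of both kinds.
Hspa5: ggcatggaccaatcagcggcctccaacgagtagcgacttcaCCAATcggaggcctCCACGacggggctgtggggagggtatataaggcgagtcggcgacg
Canx: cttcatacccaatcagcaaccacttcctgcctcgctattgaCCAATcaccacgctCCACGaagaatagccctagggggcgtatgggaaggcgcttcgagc
Herpud1: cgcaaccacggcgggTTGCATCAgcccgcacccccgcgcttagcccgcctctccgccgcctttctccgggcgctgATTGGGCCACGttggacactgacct
The capitals in Herpud1 mark first the C/EBP-ATF letters on the opposite strand and then ERSE-II. The cAMP response element TGACGTCA was in no promoter of these 29 genes, against 3.78% of the genes tested and 1.79% of all promoters. The vitamin D response element DR3, a direct repeat searched on both strands, was in none of them either, against 0.0113% of the genes tested and 0.0396% of all promoters. No matches of different motifs overlapped in these 29 genes. A match says only that the letters are in the window, and no match only that they are not.

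Calcitriol libraries held less mRNA of most ATF4 arm genes. Of the 15 genes, 11 were called lower, 1 was called higher (Slc3a2) and 3 were not called, and the median log2 change of the arm was -0.41. All 31 genes passed the filter on low counts. Among all genes tested 15.5% were called lower and 16.1% higher. Less of a transcript per cell and fewer cells that carry it cannot be told apart in these bulk samples.

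**Figure D1:**
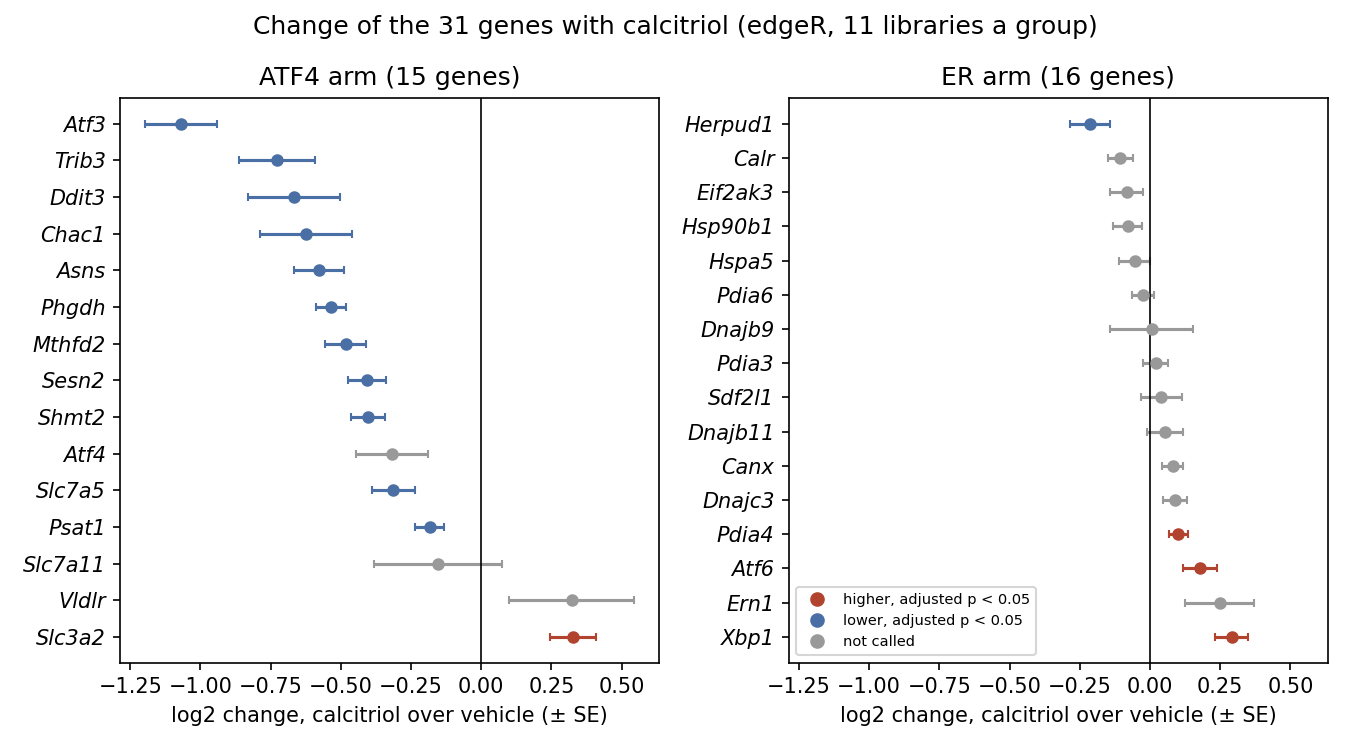
Log2 change of each gene, calcitriol over vehicle, as the estimate of edgeR with its standard error over 11 libraries a group, for the ATF4 arm on the left and the ER arm on the right. In the ATF4 arm 11 of 15 genes lie to the left of 0 and pass the threshold, and in the ER arm 12 of 16 genes are not called. Of all 11905 genes tested 1844 were called lower and 8150 were not called.

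ATF4 itself is the factor at the head of this arm, and its level was lower by a margin that did not pass the threshold. Atf4 mRNA ran from 198 to 367 CPM with a median of 245 in calcitriol libraries and from 237 to 443 CPM with a median of 306 in vehicle libraries. The groups overlapped widely, with 5 of 11 calcitriol libraries below every vehicle library. On the log2 scale the change was -0.32 ± 0.13 (SE), with an adjusted p of 0.0629 by edgeR. This call hung on the setting. Of 37 alternatives, 12 called Atf4 lower and 25 did not. With the most alike libraries summed edgeR gave an adjusted p of 0.0625. DESeq2 gave an adjusted p of 0.0359, and 5 surrogate variables in the fit gave 0.000473. Without replicates 1 to 4 of both groups, which were high in each group, it was 0.00401. Atf4 also passed without calcitriol replicate 3 (0.0254) or 4 (0.0327) or without vehicle replicate 7 (0.035), 8 (0.0458) or 10 (0.0494).

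The stress regulators below ATF4 were lower by the largest margins of the 31 genes. Atf3, a factor induced by many stresses, ran from 49.3 to 119 CPM with a median of 62.5 in calcitriol libraries and from 135 to 170 CPM with a median of 162 in vehicle libraries. Every calcitriol library lay below every vehicle library, an arrangement seen in 1.59% of all genes tested, while the reverse arrangement was seen in 2.77%. Atf3 averaged 75.5 ± 24.2 CPM in calcitriol libraries and 157 ± 11.9 CPM in vehicle libraries (SD, n = 11 each). The log2 change was -1.07 ± 0.13 (adjusted p = 6.56e-07, edgeR).

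Trib3, a pseudokinase induced by ATF4 that holds ATF4 back in turn, ran from 22.4 to 49.5 CPM with a median of 25.4 in calcitriol libraries and from 31.8 to 70.0 CPM with a median of 45.6 in vehicle libraries. Calcitriol replicate 3 was the highest of its group and the only calcitriol library above the vehicle median. Trib3 changed by -0.73 ± 0.13 on the log2 scale (adjusted p = 0.000169, edgeR).

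Ddit3, which encodes the pro-apoptotic factor CHOP, ran from 34.9 to 98.6 CPM with a median of 52.8 in calcitriol libraries and from 64.4 to 118 CPM with a median of 82.7 in vehicle libraries. In this gene 9 of 11 calcitriol libraries lay below every vehicle library and the other 2 lay above the vehicle median. Ddit3 changed by -0.67 ± 0.16 on the log2 scale (adjusted p = 0.00295, edgeR), and in the shallower libraries alone it was -0.43 (0.0696). Ddit3 overlaps Mars on the other strand, and Mars was lower too, so if the counting ignored strand part of its reads may belong to Mars.

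Further targets act on redox state, growth and lipid uptake. Chac1, which breaks down glutathione, ran from 3.54 to 8.97 CPM with a median of 5.52 in calcitriol libraries and from 5.20 to 14.3 CPM with a median of 9.03 in vehicle libraries. All 11 calcitriol libraries lay below the vehicle median, and 4 lay below every vehicle library. Chac1 changed by -0.62 ± 0.16 on the log2 scale (adjusted p = 0.00416, edgeR), and the call was lost in the deeper libraries alone (0.159). Sesn2, a leucine sensor that restrains mTORC1, ran from 28.2 to 41.8 CPM with a median of 34.1 in calcitriol libraries and from 38.5 to 49.7 CPM with a median of 47.3 in vehicle libraries. The change of Sesn2 was -0.41 ± 0.07 on the log2 scale (adjusted p = 2.82e-05, edgeR). Vldlr, a lipoprotein receptor that PERK and ATF4 are known to raise, was not called, at 112 ± 37.4 CPM in calcitriol libraries and 89.1 ± 29.1 CPM in vehicle libraries (adjusted p = 0.301, edgeR). Its 95% interval was wide, from -0.11 to 0.76 on the log2 scale. In both groups replicates 5, 6 and 9 stood apart, at 68.4, 62.4 and 50.7 CPM against 111 to 174 CPM in the other calcitriol libraries, and at 54.7, 44.7 and 36.5 CPM against 98.1 to 117 CPM in the other vehicle libraries. With 5 surrogate variables in the fit, which take up structure shared by libraries, Vldlr was called higher (0.29, adjusted p = 0.00374). That fit called 2622 of all genes higher, against 1911 in the main fit.

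All 5 enzymes of amino acid and one-carbon metabolism were called lower. Phgdh, which opens serine synthesis, ran from 78.8 to 109 CPM with a median of 93.5 in calcitriol libraries and from 128 to 149 CPM with a median of 136 in vehicle libraries. The groups did not overlap. The log2 change was -0.54 ± 0.05 (adjusted p = 6.37e-09, edgeR), the smallest p of the 31 genes.

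Psat1 carries out the next step of the same pathway. It ran from 222 to 304 CPM with a median of 259 in calcitriol libraries and from 261 to 323 CPM with a median of 287 in vehicle libraries. Its change was the smallest of the 5 enzymes, -0.18 ± 0.05 on the log2 scale (adjusted p = 0.00768, edgeR), and the groups overlapped. Psat1 was not called in the shallower libraries alone (0.124).

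The mitochondrial enzymes that carry serine carbon into the folate pool followed. Shmt2, which turns serine into glycine, ran from 64.6 to 100.0 CPM with a median of 84.6 in calcitriol libraries and from 105 to 129 CPM with a median of 110.5 in vehicle libraries. The groups did not overlap, and the log2 change was -0.40 ± 0.06 (adjusted p = 7.51e-06, edgeR). Mthfd2, which oxidises the folate unit so formed, ran from 97.8 to 129 CPM with a median of 109 in calcitriol libraries and from 128 to 190 CPM with a median of 139 in vehicle libraries. Of the calcitriol libraries 10 of 11 lay below every vehicle library, and the log2 change was -0.48 ± 0.07 (adjusted p = 9.51e-06, edgeR). Shmt2 overlaps Ndufa4l2 on the other strand.

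Asns, asparagine synthetase, ran from 86.0 to 132 CPM with a median of 98.4 in calcitriol libraries and from 126 to 203 CPM with a median of 146 in vehicle libraries. Here too 10 of 11 calcitriol libraries lay below every vehicle library. Asns averaged 105 ± 16.2 CPM with calcitriol and 156 ± 25.7 CPM with vehicle (SD, n = 11 each), a log2 change of -0.58 ± 0.09 (adjusted p = 1.38e-05, edgeR).

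**Figure D2:**
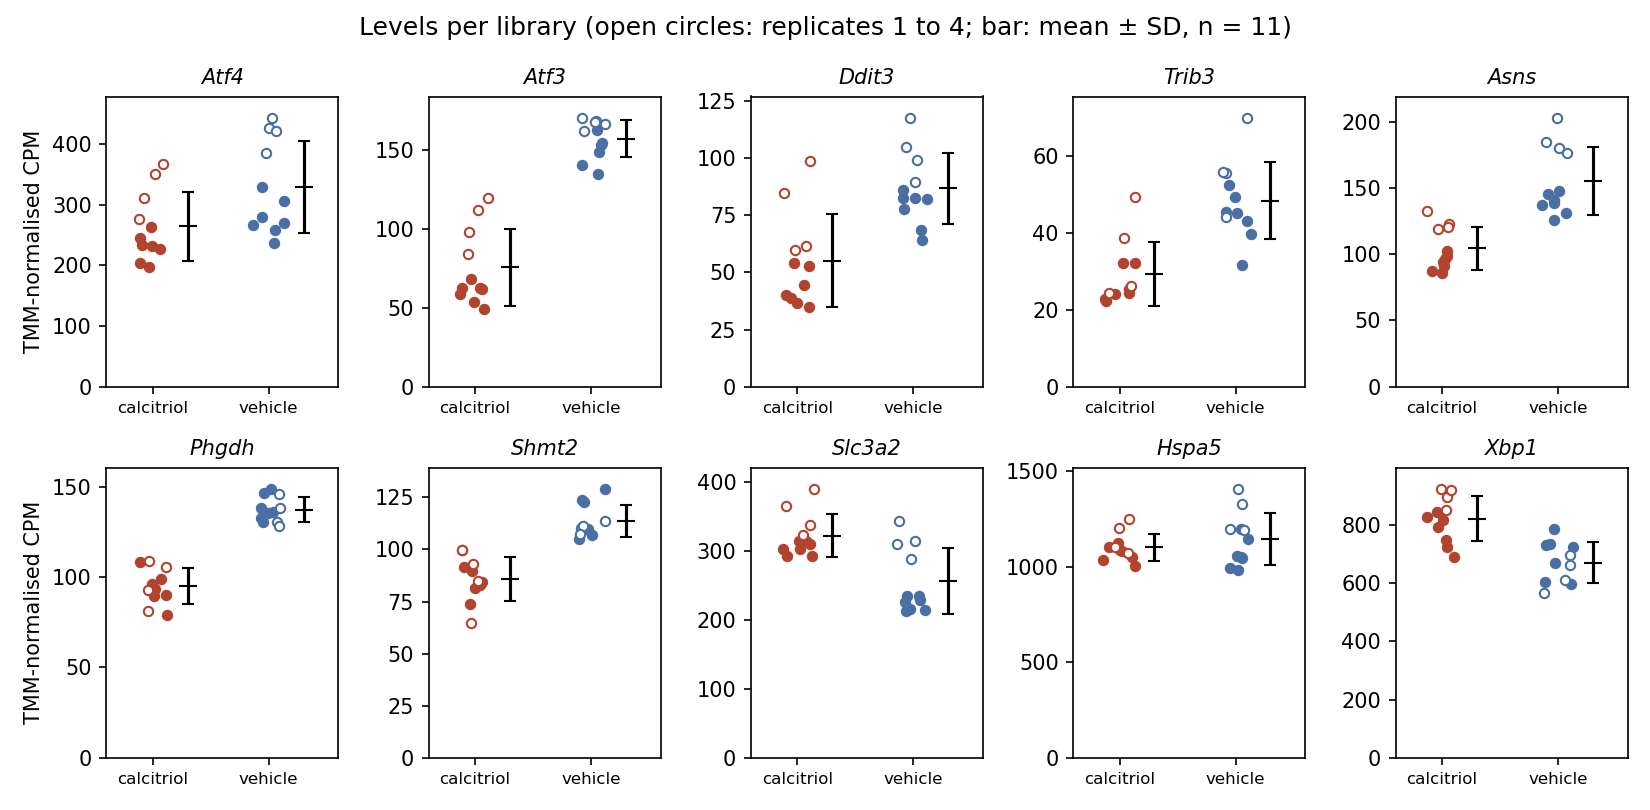
TMM-normalised CPM of 10 of the 31 genes in each library, calcitriol on the left and vehicle on the right of each panel, with replicates 1 to 4 as open circles and the mean ± SD of 11 libraries beside the points. Atf3, Phgdh and Shmt2 show no overlap between the groups, Slc3a2 and Xbp1 are higher with calcitriol, and Hspa5 overlaps throughout.

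The transporters did not move as 1 group. Slc3a2, the heavy chain CD98 that carries the amino acid exchangers of both other genes to the surface, ran from 292 to 390 CPM with a median of 315 in calcitriol libraries and from 213 to 344 CPM with a median of 235 in vehicle libraries. All 11 calcitriol libraries lay above the vehicle median, and Slc3a2 was the only ATF4 arm gene called higher, by 0.33 ± 0.08 on the log2 scale (adjusted p = 0.00272, edgeR). The call was lost when the most alike libraries were summed (0.0529) and in the shallower libraries alone (0.103).

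Slc7a5, the light chain LAT1 that imports large neutral amino acids, ran from 50.4 to 79.2 CPM with a median of 55.8 in calcitriol libraries and from 54.7 to 85.1 CPM with a median of 74.5 in vehicle libraries. It was called lower, by -0.31 ± 0.08 on the log2 scale (adjusted p = 0.00225, edgeR), although not in the shallower libraries alone (0.063). Slc7a11, the cystine importer xCT, had only 145 counts over all calcitriol libraries and 169 over all vehicle libraries, and no difference was detectable at this depth (-0.15 ± 0.23, adjusted p = 0.658, edgeR). Per kilobase of exon Slc7a11 was the lowest of the 31 genes, at 0.11 CPM with calcitriol and 0.125 CPM with vehicle.

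In the ER arm most genes kept close levels in the groups. Of the 16 genes, 3 were called higher (Xbp1, Atf6 and Pdia4), 1 was called lower (Herpud1) and 12 were not called, and the median log2 change was 0.03. The share called, 18.8% higher and 6.25% lower, stands beside 16.1% and 15.5% of all genes tested. With total count scaling 1 was called higher (Xbp1) and 5 lower (Hsp90b1, Herpud1, Pdia6, Calr and Eif2ak3). Among all 11905 genes tested 1319 were then called higher and 2878 lower, against 1911 and 1844 with TMM factors. Small changes in this arm, as among all genes, therefore depend on the scaling. The 95% intervals of the 12 genes not called lay within -0.29 to 0.49 on the log2 scale, and within -0.20 to 0.18 for the 10 other than Ern1 and Dnajb9.

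Among the sensors and factors, Xbp1 stood out. Xbp1 ran from 689 to 921 CPM with a median of 825 in calcitriol libraries and from 567 to 785 CPM with a median of 667 in vehicle libraries. In this gene 8 of 11 calcitriol libraries lay above every vehicle library. Xbp1 changed by 0.29 ± 0.06 on the log2 scale (adjusted p = 0.000363, edgeR). Without replicates 1 to 4 of both groups it was 0.17 (0.039), and in the deeper libraries alone 0.19 (0.0731).

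Atf6 ran from 38.1 to 45.9 CPM with a median of 41.0 in calcitriol libraries and from 29.3 to 46.8 CPM with a median of 35.5 in vehicle libraries. All 11 calcitriol libraries lay above the vehicle median but none above the highest vehicle library, replicate 4. Its change of 0.18 ± 0.06 (adjusted p = 0.0257, edgeR) was no longer called without calcitriol replicate 10 (0.0504) or with total count scaling (0.148). The call was also lost with no filter on low counts (0.0605), with the most alike libraries summed (0.0762) and in the shallower libraries alone (0.406). Without replicates 1 to 4 of both groups the change was 0.27. Ern1 averaged 18.9 ± 4.37 CPM with calcitriol and 15.7 ± 3.47 CPM with vehicle and was not called (0.25 ± 0.12, adjusted p = 0.131, edgeR). Eif2ak3, the kinase PERK, averaged 36.5 ± 2.57 CPM with calcitriol and 38.8 ± 3.87 CPM with vehicle (-0.08 ± 0.06, adjusted p = 0.303, edgeR).

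The main chaperones, Hspa5 and Hsp90b1, were not called. Hspa5, which encodes BiP, the main ER chaperone and a standard readout of the unfolded protein response, ran from 1007 to 1250 CPM with a median of 1086 in calcitriol libraries and from 984 to 1406 CPM with a median of 1144 in vehicle libraries. The log2 change was -0.05 ± 0.06 (adjusted p = 0.505, edgeR), with a 95% interval from -0.17 to 0.06. Hspa5 was the most abundant of the 31 genes per kilobase of exon, at 261 CPM with calcitriol and 271 CPM with vehicle. Hsp90b1, the ER member of the HSP90 family, averaged 508 ± 41.5 CPM with calcitriol and 537 ± 48.0 CPM with vehicle.

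The BiP co-chaperones and partners were as close. Dnajb9 averaged 8.21 ± 2.39 CPM with calcitriol and 8.24 ± 1.83 CPM with vehicle. Dnajb11 averaged 126 ± 15.6 CPM with calcitriol and 122 ± 10.03 CPM with vehicle. Sdf2l1, which binds Dnajb11, averaged 72.6 ± 8.23 CPM with calcitriol and 70.4 ± 9.28 CPM with vehicle. The sign of the change of each of these 3 genes was turned by total count scaling. Dnajc3, which counters the eIF2α kinases, averaged 114 ± 5.81 CPM with calcitriol and 108 ± 7.08 CPM with vehicle, and all 11 calcitriol libraries lay above the vehicle median (0.09 ± 0.04, adjusted p = 0.113, edgeR).

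The lectin chaperones, which fold glycoproteins, lay on either side of 0. Canx averaged 1109 ± 53.8 CPM with calcitriol and 1049 ± 51.1 CPM with vehicle (0.08 ± 0.04, adjusted p = 0.0978, edgeR). Calr averaged 367 ± 25.8 CPM with calcitriol and 395 ± 20.5 CPM with vehicle (-0.11 ± 0.04, adjusted p = 0.0635, edgeR). Calr passed the threshold without vehicle replicate 3 (0.0497) or 10 (0.0419) or without calcitriol replicate 3 (0.0276), and with DESeq2 both did (0.0468 for Canx, 0.0483 for Calr).

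Of the disulfide isomerases, which form and shuffle disulfide bonds, Pdia4 was called higher by a small margin. Pdia4 ran from 258 to 299 CPM with a median of 270 in calcitriol libraries and from 241 to 266 CPM with a median of 254 in vehicle libraries. Its change of 0.10 ± 0.03 on the log2 scale (adjusted p = 0.0248, edgeR) was not called with total count scaling (0.03, adjusted p = 0.522). Nor was it called without replicates 1 and 2 (0.0644) or 1 to 4 of both groups (0.0994), or with no filter on low counts (0.144). The call was also lost with the most alike libraries summed (0.149), and in the deeper (0.177) or the shallower libraries alone (0.239). Pdia3 averaged 176 ± 8.58 CPM with calcitriol and 174 ± 12.8 CPM with vehicle, and Pdia6 592 ± 30.3 CPM with calcitriol and 602 ± 34.2 CPM with vehicle. Pdia3 overlaps Catsper2 and Pdia6 overlaps Atp6v1c2, each on the other strand.

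Herpud1, which organises the degradation complex of the ER membrane, was the 1 ER arm gene called lower. It ran from 30.6 to 43.6 CPM with a median of 35.7 in calcitriol libraries and from 38.0 to 52.6 CPM with a median of 44.0 in vehicle libraries. All 11 calcitriol libraries lay below the vehicle median. Its log2 change was -0.21 ± 0.07 (adjusted p = 0.0241, edgeR). It was not called in the deeper (-0.12, adjusted p = 0.301) or the shallower libraries alone (-0.28, adjusted p = 0.095), or without replicates 1 to 4 of both groups (0.0892). The call was also lost without replicates 1 and 2 of both groups (0.0653) and with the most alike libraries summed (0.0811).

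The arms were compared within each library, where the scaling factor cancels. The mean log2 CPM of the 15 ATF4 arm genes ran from 5.73 to 6.21 in calcitriol libraries and from 6.11 to 6.57 in vehicle libraries, and 10 of 11 calcitriol libraries lay below every vehicle library. The mean of the 16 ER arm genes ran from 7.14 to 7.26 in calcitriol libraries and from 7.09 to 7.27 in vehicle libraries. The ATF4 arm minus the ER arm was -1.30 ± 0.13 with calcitriol and -0.87 ± 0.13 with vehicle (SD, n = 11 each), a difference of -0.43 on the log2 scale. These means are descriptions of genes chosen with earlier results known, and no test was made of them.

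**Figure D3:**
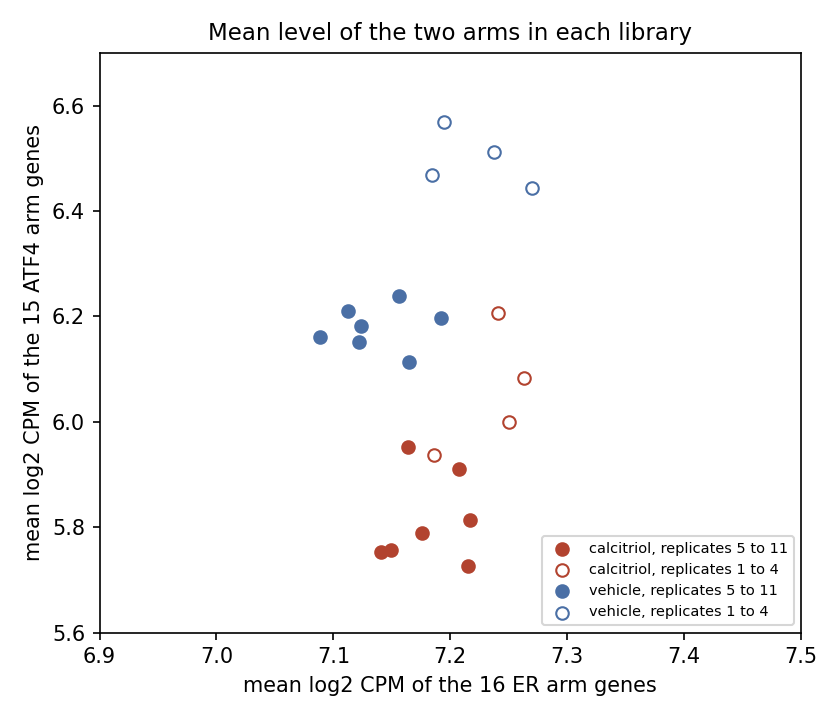
Mean log2 CPM of the 15 ATF4 arm genes on the vertical axis against that of the 16 ER arm genes on the horizontal axis, 1 point per library, calcitriol and vehicle in different colours and replicates 1 to 4 as open circles. Along the vertical axis (5.73 to 6.21 with calcitriol, 6.11 to 6.57 with vehicle) 10 of 11 calcitriol libraries lie below every vehicle library. Along the horizontal axis the groups overlap. Replicates 1 to 4 lie high on the vertical axis in each group.

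Replicates 1 to 4 lay high in the ATF4 arm, clear of the other libraries in the vehicle group and with a small overlap in the calcitriol group. The numbers follow the order of deposit, and the labels do not say whether libraries of the groups share a mouse, culture or batch. The arm mean was 5.94 to 6.21 in calcitriol replicates 1 to 4 and 5.73 to 5.95 in calcitriol replicates 5 to 11, and it was 6.44 to 6.57 in vehicle replicates 1 to 4 and 6.11 to 6.24 in vehicle replicates 5 to 11. Atf4 had 277 to 367 CPM in calcitriol replicates 1 to 4 and 198 to 264 CPM in the other calcitriol libraries, and 386 to 443 CPM in vehicle replicates 1 to 4 and 237 to 330 CPM in the other vehicle libraries. Atf3, Ddit3, Asns, Mthfd2 and Slc3a2 were higher in each of these 4 calcitriol libraries than in every other calcitriol library. For Ddit3, Asns, Mthfd2 and Slc3a2 the same held among vehicle libraries. Some ER arm genes parted too, each in 1 group. Xbp1 had 851 to 921 CPM in calcitriol replicates 1 to 4 and 689 to 844 CPM in the other calcitriol libraries. For Dnajb11 these were 99.7 to 116 and 129 to 147 CPM. Pdia6 had 616 to 664 CPM in vehicle replicates 1 to 4 and 564 to 600 CPM in the other vehicle libraries. In the ATF4 arm Phgdh, Shmt2, Sesn2 and Slc7a5 overlapped between these sets in both groups. All 8 libraries of replicates 1 to 4 had fewer counts than the median library (7504710), and the labels give no batch, so the part of depth or batch in this was not tested.

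The change with calcitriol was seen without these 8 libraries as well. With replicates 5 to 11 alone, a setting added after the data were seen, 11 ATF4 arm genes were called lower and 1 higher. Atf4 was then called (-0.27, adjusted p = 0.00401, edgeR), and Chac1 was not (-0.42, adjusted p = 0.124, edgeR). In the ER arm Xbp1 and Atf6 were called higher, Pdia4 and Herpud1 were no longer called, and 3721 of all genes were called. The arm difference was -0.41.

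Since the libraries fell into such sets, correlations between genes were taken over replicates 5 to 11 of each group only, a choice made after the data were seen. Of 12 relations (6 gene pairs in each group, n = 7, two-sided exact permutation tests), 4 had an unadjusted p of r under 0.05 and 0 passed Benjamini-Hochberg adjustment. Over all 11 libraries of a group, as planned at first, 5 of the 12 passed, but those libraries fall into separate sets, so the pooled values are not given. The strongest over replicates 5 to 11 was Hspa5 with Asns in calcitriol libraries (r = 0.89, exact permutation p = 0.00873, adjusted 0.103; rho = 0.93, p = 0.00675, adjusted 0.081). Without the 2 libraries farthest from the Hspa5 median r was 0.76. In vehicle libraries the same pair had r = 0.45 (exact permutation p = 0.306, adjusted 0.613; rho = 0.43, p = 0.354, adjusted 0.527), and r = 0.88 without the 2 libraries farthest from the Hspa5 median. Asns with Psat1 was the only pair with an unadjusted p under 0.05 in both groups. It had r = 0.81 in calcitriol libraries (exact permutation p = 0.0365, adjusted 0.11) and r = 0.84 in vehicle libraries (p = 0.0181, adjusted 0.103). Without the 2 libraries farthest from the Asns median r was 0.60 with calcitriol and 0.54 with vehicle.

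Genes that work beside these were read from lists of the same pathways. The cytosolic aminoacyl-tRNA synthetases, which load tRNAs with amino acids and are known ATF4 targets, had 15 of 20 genes called lower and the other 5 not called, with a median log2 change of -0.26, beside 15.5% lower among all genes tested. Yars ran from 98.3 to 124 CPM in calcitriol libraries and from 128 to 163 CPM in vehicle libraries, with no overlap, and changed by -0.35 ± 0.05 on the log2 scale (adjusted p = 2.68e-06, edgeR). Iars averaged 84.7 ± 9.51 CPM with calcitriol and 112 ± 12.9 CPM with vehicle, Mars 128 ± 10.1 CPM with calcitriol and 158 ± 9.19 CPM with vehicle, and Kars 229 ± 16.8 CPM with calcitriol and 276 ± 16.2 CPM with vehicle. All 3 were called lower. C/EBP-ATF letters were in 5 of the 12 synthetase genes with a promoter, against 2.69% of the genes tested. Leaving out any 1 library left 14 or 15 genes called lower. In the shallower libraries alone 10 were called lower, where 764 of all 11962 genes tested were.

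Other enzymes of serine, one-carbon, proline and transamination pathways had 8 of 16 tested genes called lower and 1 called higher, with a median of -0.18, beside 15.5% lower and 16.1% higher among all genes tested. The count called lower was 2 in the shallower libraries alone and 5 with no filter on low counts. In those settings 764 of 11962 and 1748 of 27301 genes were called lower. Of the 19 listed genes 3 were too low to test. Gpt2, an alanine aminotransferase, ran from 29.5 to 42.5 CPM in calcitriol libraries and from 43.3 to 60.6 CPM in vehicle libraries, with no overlap (-0.47 ± 0.06, adjusted p = 1.12e-06, edgeR). Aldh18a1, which opens proline synthesis, and Got1, an aspartate aminotransferase, were lower by -0.28 and -0.34. The exception was Psph, which completes the serine pathway that Phgdh opens. Psph ran from 97.5 to 141 CPM in calcitriol libraries and from 86.7 to 98.8 CPM in vehicle libraries and rose by 0.36 ± 0.05 on the log2 scale (adjusted p = 7.12e-06, edgeR).

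Of 14 other amino acid transporters 3 were called higher and 4 lower, with a median of -0.05. These shares, 21.4% and 28.6%, stand beside 16.1% and 15.5% of all genes tested. The higher count was 1 with alike libraries summed and 0 in the shallower libraries alone, where 2 were called lower. All genes called higher numbered 1485 of 12856 with alike libraries summed. In the shallower libraries they numbered 1002 of 11962, and 764 were called lower. Slc1a4, a carrier of neutral amino acids such as alanine and serine, ran from 6.08 to 10.9 CPM in calcitriol libraries and from 12.4 to 20.8 CPM in vehicle libraries, with no overlap (-0.92 ± 0.11, adjusted p = 3.17e-07, edgeR). Slc7a1, a carrier of cationic amino acids, changed by -0.44 ± 0.09 (0.00023), while its relative Slc7a3 changed by 0.59 ± 0.16 (0.00577) and Slc36a4 by 0.35 ± 0.07 (0.00035) on the log2 scale.

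**Figure D4:**
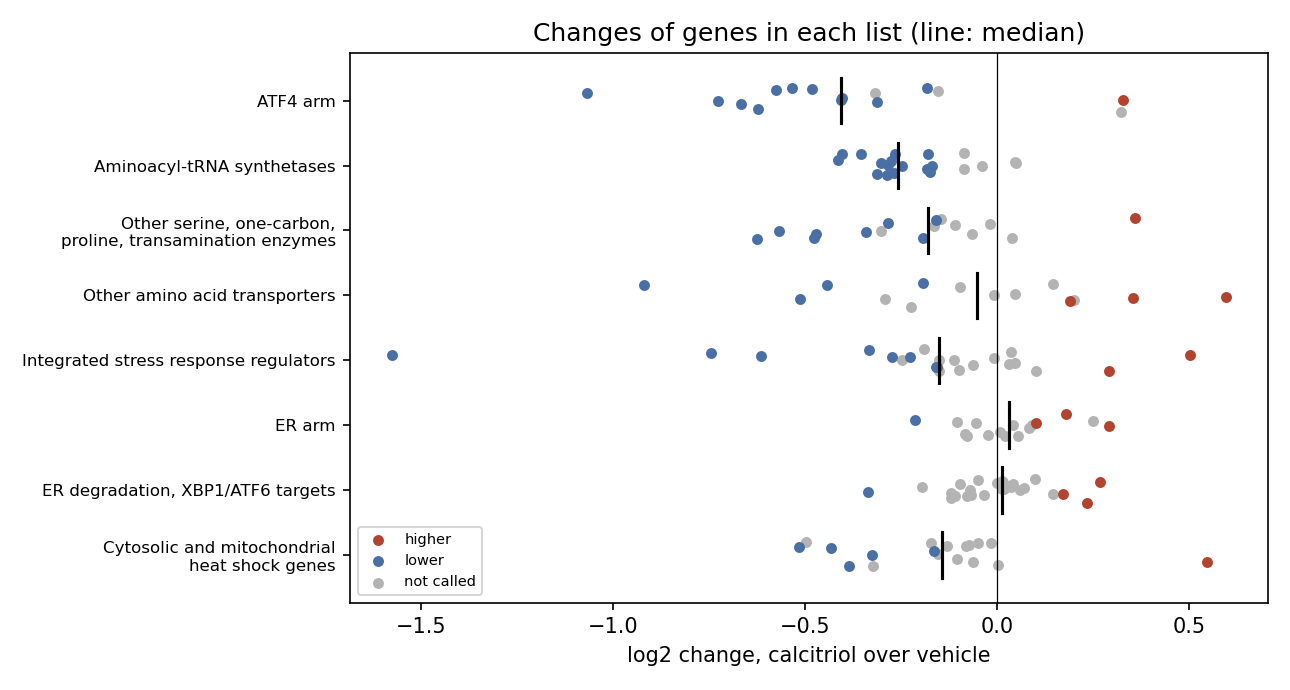
Log2 change, calcitriol over vehicle, of every tested gene in the 2 arms and in 6 further lists, 1 point per gene, coloured by call, with the median of each list as a line. The medians lie at -0.41 for the ATF4 arm, -0.26 for the tRNA synthetases and 0.03 for the ER arm.

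Regulators of the integrated stress response had 8 of 22 genes called lower and 2 called higher, with a median of -0.15, beside 15.5% lower and 16.1% higher among all genes tested. The count called lower was 3 in the shallower libraries alone, 4 with alike libraries summed and 12 with total count scaling or with surrogate variables. Of all genes, 764 of 11962, 1396 of 12856, 2878 of 11905 and 2820 of 11905 were called lower in these settings, in that order. It was 5 without vehicle replicate 1, 6 or 9 or without calcitriol replicate 3, 6, 8, 10 or 11. The count called higher was 1 without any 1 of vehicle replicates 6 to 11 or of calcitriol replicates 1, 2, 3, 4, 10 and 11. Nupr1, a small stress-induced chromatin protein, averaged 2.97 ± 1.45 CPM with calcitriol and 8.63 ± 3.28 CPM with vehicle (-1.58 ± 0.26, adjusted p = 3.6e-05, edgeR). The eIF2α kinases Eif2ak2, which encodes PKR, and Eif2ak4, which encodes GCN2, each had all calcitriol libraries below all vehicle libraries. Eif2ak2 ran from 13.6 to 26.0 CPM with calcitriol and from 27.5 to 47.6 CPM with vehicle (-0.75 ± 0.10, adjusted p = 1.11e-06, edgeR). Eif2ak4 ran from 44.6 to 56.4 CPM with calcitriol and from 56.8 to 74.6 CPM with vehicle (-0.33 ± 0.05, adjusted p = 7.04e-06, edgeR). Nck1, an adaptor that takes part in removing the phosphate from eIF2α, rose by 0.50 ± 0.08 (adjusted p = 8.21e-06, edgeR).

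Genes of ER-associated degradation and other XBP1 or ATF6 targets had 3 of 25 tested genes called higher and 1 lower, with a median of 0.01, beside 16.1% higher and 15.5% lower among all genes tested, and Derl3 was too low to test. The count called lower was 2 without calcitriol replicate 2, 3 without replicates 1 to 4 of both groups and 4 with total count scaling or with surrogate variables. Of all genes, 1845, 1823, 2878 and 2820 were called lower in these settings, in that order, against 1844 in the main fit. The count called higher was 1 with alike libraries summed or in the shallower libraries alone, where 1485 and 1002 of all genes were called higher. Dnajc10, an ER reductase, ran from 136 to 173 CPM in calcitriol libraries and from 178 to 203 CPM in vehicle libraries, with no overlap (-0.34 ± 0.04, adjusted p = 4.87e-07, edgeR). Mbtps1, the protease that cuts ATF6, changed by 0.23 ± 0.06 (0.00196), Edem3, a mannosidase-like degradation factor, by 0.17 ± 0.05 (0.0101) and Ssr3, a translocon subunit, by 0.27 ± 0.08 (0.0106).

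Markers of the cells themselves were at hand in every library. The 7 T and TH2 cell markers summed to 1839 to 2017 CPM in calcitriol libraries and 1844 to 2135 CPM in vehicle libraries. Of these 7 genes 3 were called higher and 2 lower, beside 16.1% higher and 15.5% lower among all genes tested. The called genes were Cd3g, Il13, Cd4, Cd3e and Cd3d, so close sums do not mean that each marker kept its level. The 9 B and plasma cell markers, genes that matter here because plasma cells run a strong unfolded protein response, summed to 107 to 209 CPM with calcitriol and 138 to 189 CPM with vehicle. Most of that was Sdc1, and neither of the 2 tested was called. The 6 myeloid markers summed to at most 2.90 CPM with calcitriol and 1.83 CPM with vehicle, the 5 mast cell and basophil markers to at most 1.14 CPM with calcitriol and 1.10 CPM with vehicle, and the 4 erythroid markers to at most 0.165 CPM with calcitriol and 0.0965 CPM with vehicle, with Alas2 at 0 as well as Hbb-bt and Hba-a1, globin genes whose RNA the kit removes and which therefore check nothing. The 5 dendritic cell markers summed to 3.85 to 9.34 CPM with calcitriol and 6.63 to 10.4 CPM with vehicle, with Zbtb46 called lower, and the 4 CD8 T and NK cell markers to 2.52 to 9.53 CPM with calcitriol and 3.87 to 8.36 CPM with vehicle, with Ncr1 at 0.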

How the data were processed

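Total RNA of 22 TH2 cell libraries was sequenced after preparation with a stranded total RNA kit with globin removal, per the labels' protocols. The authors deposited raw counts per Ensembl gene, 1 column per library. STAR 2.7.10a, HTSeq 0.13.5 and GRCm38 are named in the submitters' processing notes. Their roles, the annotation release and whether counting used strand were not given in the sources used here, so reads of overlapping genes may be mixed. Symbols came from GENCODE M21 (GRCm38), and 259 identifiers had none.

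Genes were kept with filterByExpr (11905 of 49671, of which 22370 had no count) and tested with edgeR 4.0.16 in R 4.3.3: TMM factors, robust quasi-likelihood F test, no covariate, Benjamini-Hochberg adjustment over all genes tested, threshold 0.05. The standard error is the log2 change divided by the square root of F, and 95% intervals are 1.96 standard errors to either side. Arm means used log2 CPM with a prior count of 2. Library pairs of 1 group (110) differed by a chi-square of 2.52 to 26.8 per degree of freedom in their counts, so none was merged. The total count of a library limits the precision of low genes.

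The members and lists were chosen with earlier results of these data known. Named were all members, the 4 genes of smallest p in each further list, Cyp24a1, and called or overlapping genes that a count turns on, the last after their values were seen. Alternatives were DESeq2 1.42.0, limma-voom (limma 3.58.1) with and without quality weights, RLE, upper-quartile or total count scaling, no filter or a stricter one (5 CPM in 11 libraries), non-robust dispersion, 5 surrogate variables (sva 3.50.0), sets of most alike libraries summed, deeper or shallower libraries alone, and libraries left out.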

Additional observations from a re-analysis of the deposited data

How the results depend on the processing

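In all alternatives the ATF4 arm stayed lower: 8 to 12 of 15 genes were called lower, 8 of them in the shallower libraries alone, and Atf3, Trib3, Sesn2, Asns, Phgdh, Shmt2 and Mthfd2 were called in each of 37 alternatives. The arm difference ran from -0.38 (shallower libraries) to -0.55 (median over members). The number of ATF4 arm genes called higher, 1, was 2 with surrogate variables, 0 with alike libraries summed and 0 in the shallower libraries. The ER arm moved more. Its count called higher, 3, was 1 with total count only, 1 with no filter on low counts, 6 with surrogate variables, 1 with alike libraries summed, 1 in the shallower libraries, 2 without replicates 1 and 2 of both groups or 1 to 4 of both groups, and 2 to 3 with any 1 library left out. Its count called lower, 1, was 2 with DESeq2, 5 with total count only, 3 with surrogate variables, 0 without replicates 1 and 2 or 1 to 4 of both groups, 0 with alike libraries summed, 0 in the deeper and 0 in the shallower libraries, and 1 to 2 with any 1 library left out. Of all genes 3755 were called, 1766 in the shallower libraries alone and 3329 in the deeper ones. With total count only, 2878 of all genes were called lower, against 1844, and 1319 higher, against 1911. With surrogate variables 2820 of all genes were called lower and 2622 higher. With alike libraries summed these counts were 1396 and 1485, and in the shallower libraries 764 and 1002. With no filter on low counts they were 1748 and 1940. The arm counts above moved beside these counts of all genes.

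Over 1146 pairs of member and alternative, 1065 kept direction and side of the threshold, 25 lost the call, 29 gained one and 27 changed sign, 0 of these in a called gene. The log2 change of Hspa5 was 0.0543 in the deeper libraries and 0.00722 without replicates 1 to 4. That of Dnajb9 was -0.000531 with limma-voom, -0.0424 with quality weights, -0.0625 with total count only, -0.0608 with alike libraries summed, -0.0263 in the shallower libraries, and -0.0638 to 0.0644 with 1 library left out. That of Dnajb11 was -0.0136 with total count only and -0.139 in the shallower libraries, that of Sdf2l1 -0.0281 with total count only, -0.00437 without replicates 1 and 2 and -0.0375 in the deeper libraries, and that of Pdia3 -0.048 with total count only and -0.0362 in the shallower libraries. Slc7a11 was at 0.0516 without replicates 1 and 2, 0.238 without replicates 1 to 4 and 0.0702 in the deeper libraries. The cause of these shifts was not tested. No paired analysis was possible because the labels give no number, mouse or culture that ties a library of 1 group to a library of the other. Depth limits Slc7a11, Chac1 and Dnajb9 most, each with under 10 CPM on average.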

Other observations

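Chaperones of the cytosol and of mitochondria, which answer to other stress pathways than the ER genes, were read from a list as well. Of 18 tested genes 5 were called lower and 1 higher (Hsph1), against 15.5% and 16.1% of all genes tested, with a median log2 change of -0.14, and Hspb1 was too low to test. Hspa9, the mitochondrial HSP70, averaged 358 ± 43.1 CPM in calcitriol libraries and 484 ± 41.5 CPM in vehicle libraries (SD, n = 11 each), a log2 change of -0.43 ± 0.06 (adjusted p = 3.95e-06, edgeR). Hspd1, the mitochondrial HSP60, averaged 234 ± 42.1 CPM with calcitriol and 335 ± 38.7 CPM with vehicle (-0.52 ± 0.09, adjusted p = 3.17e-05, edgeR). Clpp, a protease of the mitochondrial matrix, and Hspa4l, a cytosolic HSP110 relative, changed by -0.33 ± 0.07 and -0.39 ± 0.07. The count called lower was 4 to 7 with any 1 library left out, 11 with surrogate variables, 9 with total count scaling, 8 with quality weights and 8 without replicates 1 to 4 of both groups. Of all genes, 1696 to 1896, 2820, 2878, 2220 and 1823 were called lower in these settings, in that order, against 1844 in the main fit.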
